A study of Mus musculus with 12 samples.

Results

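The CpG sites described here carried little methylation in spermatozoa from the testis and clearly more in spermatozoa from the caput, the first segment of the epididymis. They were chosen from a table of methylated and total reads at 14149 CpG sites by their methylation level, the percent of reads at a site that kept a cytosine after bisulfite treatment. A site belongs to the set if it lies on an autosome, is at most 20% in each of the 3 testicular samples and is at least 40% in each of the 3 caput samples. This gave 262 of the 14149 sites, or 262 of the 13917 autosomal ones. Of the 5918 autosomal sites that were at most 20% in every testicular sample, the other 5656 did not meet the caput limit and are called the other low sites below. Since the testicular and caput values chose the members, they are given as a description without a test. The corpus and cauda samples had no part in the choice, and the members were followed there.

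DNA methylation in mammals sits mostly on the cytosine of CpG pairs and is set in male germ cells well before meiosis. DNMT enzymes add it and TET enzymes start its removal, and CpG-rich promoters of active genes usually stay free of it. Spermatozoa leave the testis with a compact and transcriptionally silent genome and then mature in the caput, corpus and cauda epididymidis, in that order.

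Spermatozoa came from testis, caput, corpus and cauda of untreated mice aged 10 to 12 weeks. There were 3 samples for each origin and a pool of 4 mice behind a sample. The paper states that they were sorted by their fluorescence, but for the cauda its methods describe perfusion of the duct and centrifugation. Tissue of the other origins was cut and broken up before sorting. Way of collection and segment therefore cannot be told apart in comparisons with cauda. All mice carried the same transgenes on a B6D2F1 background, Tg(CAG/su9-DsRed2, Acr3-EGFP)RBGS002Osb, which colour the mitochondria red and the acrosome green, and there was no group without them. Methylation was measured by reduced representation bisulfite sequencing (RRBS), which reads short CpG-rich restriction fragments, so sites outside such fragments were not measured. The labels do not say whether samples with the same number came from the same mice, and a pool hides the differences between its mice.

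Each of the 14149 sites had at least 10 reads in every sample. At the members, the reads summed to 14610, 17638 and 14769 in testicular replicates 1, 2 and 3, and to 12844, 15351 and 11977 in the caput replicates. The sums were 7401, 14852 and 11282 in the corpus replicates and 14135, 12338 and 13209 in the cauda replicates. The shallowest library was corpus replicate 1, with a median of 20 reads at a member against 40.5 and 35 in corpus replicates 2 and 3. At 20 reads, a level of 0% allows up to 15% (3 reads of the total), and such limits cover counting error only.

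Caput replicate 1 stood apart, with the highest level of the 3 caput samples at 228 of the 262 members. The corpus samples differed in other ways, since replicate 2 had the highest mean and replicate 1 the fewest reads and the most members at 0%. Corpus replicate 1 was at 0% at 64 members, against 2 in corpus replicate 2 and 32 in corpus replicate 3. The authors' own site lists for these segments carry a name that says outliers were left out, for a reason not given in the sources used here. Some of the results below are given with and without caput replicate 1 and corpus replicates 1 and 2, and values of single loci are given per sample.

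Over the members, the mean methylation level was 5.27%, 6.24% and 6.37% in testicular replicates 1, 2 and 3. In caput it was 82.9%, 54.5% and 55.8%. Caput replicate 1 was therefore far above the other caput samples, whose levels lay close together. The group means were 5.96% ± 0.602 in testicular and 64.4% ± 16.0 in caput spermatozoa (SD, n = 3 each), and 55.2% ± 0.925 (SD, n = 2) in caput without replicate 1. At the other low sites the caput mean was 8.79% ± 4.12 (SD, n = 3).

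Each caput sample in turn was also left out of the choice, so that its values were free of the rule. This was planned for caput replicate 1 and added for replicates 2 and 3 after seeing the data. With caput replicates 2 and 3 alone, 269 sites were chosen, and caput replicate 1 was at least 40% at 262 of them (97.4%). Among the low sites not chosen in this way, it was at least 40% at 14.8%. Choosing without caput replicate 2 gave 446 sites, of which that sample was at least 40% at 58.7% and above 20% at 91.3%, compared with 4.88% and 11.4% of the low sites not chosen. Choosing without caput replicate 3 gave 505 sites, of which that sample was at least 40% at 51.9% and above 20% at 84.8%, compared with 3.99% and 10.0%. Most sites picked by a pair of caput samples thus lay above the testicular limit in the sample that was not used, and the number of members was set mainly by replicates 2 and 3.

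The limits of the rule passed through a continuous range of levels. The lowest caput sample was under 45% at 90 members and exactly 40% in at least 1 caput sample at 10, while a further 102 low sites had their lowest caput sample from 35% to under 40%. The highest testicular sample was above 15% at 56 members, and 62 sites that passed the caput limit lay just outside, with a highest testicular sample above 20% and up to 25%. Only 14 members were at 0% in every testicular sample, and none was at 100% in every caput sample.

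Sites just inside and just outside a limit had similar values. At the caput limit itself, with a lowest caput sample of 40%, were 10 members, assigned to Tet1, Slc39a11, Bbx, Celf2, Pla2r1, Samd4b, Zfhx3, Ccnb2, Kif6 and AC131065.1. Nearest outside were sites assigned to Dynlrb2, Cdca7 and Gm42397, with lowest caput samples of 39.8%, 39.8% and 39.7%. At the testicular limit itself, with a highest testicular sample of 20%, were 5 members, assigned to F2r, Slc35f4, Serf2, Cul1 and Gm10718. The nearest outside were a site at Meis2 with 20.1% and a pair of sites at Ust with 20.2% each.

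In corpus spermatozoa the members lay between the caput and testicular levels. Their mean was 23.6%, 31.1% and 24.8% in corpus replicates 1, 2 and 3, which gave 26.5% ± 4.05 (SD, n = 3), or 28.0% ± 4.48 (SD, n = 2) without corpus replicate 1. The medians over members were 21.1%, 31.5% and 21.9%. All 3 corpus means lay below all caput means and above all testicular means, and corpus replicate 2 was the highest of the 3 at 123 members. At the other low sites, the corpus mean was 4.63% ± 0.873 (SD, n = 3).

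Single members differed widely in corpus. All 3 corpus samples were above 20% at 70 members (26.7%), 2 samples at 98, 1 sample at 70 and no sample at 24. By sample, 134 members were above 20% in replicate 1, 201 in replicate 2 and 141 in replicate 3. Leaving out corpus replicate 1 raised the count with every corpus sample above 20% from 70 to 116, and leaving out corpus replicate 3 raised it to 108. Corpus samples therefore shared an intermediate mean but not always the same members above the limit. Among the other low sites, every corpus sample was above 20% at 107 of 5656 (1.89%).

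Part of the caput excess, taken as the caput minus the testicular mean of a member, was present in corpus. The median share over members was 35.4%, with quartiles of 22.5% and 47.2%, and without caput replicate 1, an alternative chosen after seeing the data, it was 41.1% (26.6% and 57.7%). By corpus sample the median share was 25.8%, 43.2% and 29.0%. Every corpus sample lay above every testicular sample at 133 members, compared with 8.13% of the other low sites, and below every caput sample at 181, compared with 5.18%. Below caput replicates 2 and 3 it was 182, compared with 6.67%. The rule held the testicular values of the members low and their caput values high, so these counts are a description only.

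In cauda spermatozoa the members were back near the level of testicular spermatozoa. Their mean was 6.18%, 6.60% and 5.19% in cauda replicates 1, 2 and 3, or 5.99% ± 0.720 (SD, n = 3), against 5.96% ± 0.602 in testicular spermatozoa, where the rule set an upper limit. The 2 means differed by less than the SD of either group. All 3 cauda samples were at most 20% at 224 members (85.5%), and at the other low sites this held at 5524 (97.7%). A single cauda sample was above 20% at 28 members, 2 cauda samples at 9 and all 3 at 1. Every cauda sample lay below every caput sample at 261 of the 262 members, whose caput values were set by the rule, and at 15.2% of the other low sites.

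Corpus and cauda spermatozoa were compared because neither was used by the rule. They also differed in how they were collected, and the part of this in the difference was not tested. Over the members, the corpus mean exceeded the cauda mean by 20.5 percentage points, and the lowest corpus sample (23.6%) was far above the highest cauda sample (6.60%). Without corpus replicate 1, the difference was 22.0 percentage points. For each site of the table, the reads of the corpus samples were then compared with those of the cauda samples by logistic regression, with Benjamini-Hochberg adjustment over all 14149 sites. To be called, a site needed an adjusted p under 0.01, and its pooled reads had to differ by more than 25 percentage points.

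Of the 262 members, 90 (34.4%) were called higher in corpus, while 2.9% of all sites of the table were (410 sites) and 2.86% of the other low sites. No member was called lower in corpus, against 1.24% of all sites (175 sites) and 0 of the other low sites. By the same logistic regression at an unadjusted p under 0.05, 0 members were lower in corpus and 231 were higher, beside 15.7% and 20.5% of all sites. The pooled difference was above 0 at 257 members, with a median of 22.3 percentage points, and the median was 0 both at the other low sites and over all sites. A further 108 members had an adjusted p under 0.01 with a difference of 25 percentage points or less, all higher in corpus. Over all sites, 7.39% were higher and 5.72% lower in this way. Most members thus had a higher level in corpus than in cauda, many of them by less than the size required for a call.

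This regression counts reads and takes no account of the spread between replicates. Every corpus sample lay above every cauda sample at 123 members (46.9%), compared with 6.88% of all sites and 7.76% of the other low sites. With at least 20 reads in every sample it was 65 of 88 members, for which no share over all sites is given. No member had every corpus sample below every cauda sample, against 4.23% of all sites and 0.53% of the other low sites. Of the 90 called members, 64 had groups that did not overlap, so at the other 26 at least 1 corpus sample reached down to the cauda levels. With limma on the logit of the percent, which uses the replicate spread, 0 members passed the same limits, and with a pseudo-percent of 1 only 3 of all sites were called higher. In simulated reads, limma with a pseudo-percent of 1 recovered only 98 of 200 changes of 50 percentage points, so it can miss real differences. At an unadjusted p under 0.05 limma had 110 members higher in corpus with a pseudo-percent of 1 and 117 with a pseudo-percent of 5, beside 5.77% and 5.86% of all sites. The logistic regression with an overdispersion term called 0 sites in the whole table, so its lack of calls says nothing about the members. At an unadjusted p under 0.05 it had 135 members higher, beside 5.96% of all sites.

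Without corpus replicate 1, 111 members were called higher in corpus (against 3.77% of all sites) and 184 had groups that did not overlap (against 11.9%). Without corpus replicate 2, which had the highest corpus mean, 63 were called (against 2.61%) and 132 did not overlap (against 9.51%). With fewer samples, groups fail to overlap more easily at any site. With caput replicate 1 kept out of the choice and corpus replicate 1 out of the comparison, an alternative chosen after seeing the data, 112 of 269 members were called and 187 did not overlap.

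The members were found away from the starts of genes more often than the other low sites. A promoter was taken as the 2 kb on either side of a transcript start, and it held 86 members (32.8%), 78.3% of the other low sites and 43.8% of all autosomal sites. Intergenic members numbered 104 (39.7%), compared with 13.3% and 28.0%. A further 44 members lay in introns (16.8%, against 5.62% and 22.0%) and 28 in exons (10.7%, against 2.76% and 6.30%). The members thus lay in gene bodies about as often as the whole table did, more often between genes, and much less often in promoters than other sites with low testicular levels. These shares were not tested.

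Distance to a gene start and base composition also set the members apart from the other low sites. The median distance to the start of the assigned gene was 16766.5 bp for members, 485 bp for the other low sites and 6515 bp for all autosomal sites. Within 500 bp of the start of a protein coding gene were 19 members (7.25%), while 49.2% of the other low sites lay there. In the window of 100 bp on either side of the CpG, members had a median of 7 CpGs and 49.5% G and C, the other low sites 10 CpGs and 54.5%, and all autosomal sites 7 CpGs and 50%. The ratio of observed to expected CpGs had medians of 0.592, 0.714 and 0.573. In sequence the members resembled the table as a whole and had fewer CpGs around them than the other low sites.

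Members with lower levels in cauda than in corpus were found in each class of position. Of the promoter members, 25 of 86 were called higher in corpus, and of the exon members 7 of 28, beside 2.12% and 3.88% of all autosomal sites of these classes. Among intron members it was 18 of 44, and among intergenic ones 40 of 104, beside 2.72% and 4.06%. The corpus means ran from 25.3% ± 5.24 in promoters to 29.1% ± 2.83 in introns (SD, n = 3 each). These SDs are between libraries that all classes share, so they do not measure the difference between classes, which was not tested. The 38 members in soft-masked repeats (14.5%, against 15.2% of all autosomal sites) had a corpus mean of 29.2% ± 0.298 and a cauda mean of 9.28% ± 0.779 (SD, n = 3 each), with 9 called, beside 2.31% of all autosomal sites in repeats.

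Every autosome carried members. Chromosome 2 held the most, 30 of its 434 low sites (6.91%). As a share of the low sites, chromosome 3 was highest at 7.29% and chromosome 15 lowest at 2.20%. No chromosome held the bulk of the set.

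Members closer than 1000 bp to the next were joined to a locus, which gave 185 loci assigned to 181 genes. Of these, 135 loci had 1 member, 30 had 2 and 20 had 3 or more, with 6 as the largest number. The 50 loci with several members held 127 of the 262 and had a median span of 18.5 bp, and in 49 of them all members were read on the same strand. At most 50 bp was spanned by 48 of the 50 loci, and members this close often lie on the same reads, so they are not independent. Within most of these loci the members were alike, with a median range of 3.54 percentage points between the caput means and 2.12 between the corpus means, but the ranges went up to 14.3 and 23.2 percentage points. Across loci, the quartiles of the corpus mean were 18.2% and 32.4%.

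Sites close to a member often had the same course although they were not members. Within 100 bp of a member lay 96 other autosomal sites of the table, with means of 76.7%, 44.1% and 44.3% in caput replicates 1, 2 and 3. Their corpus means were 18.1%, 30.2% and 23.2%, and the group means were 7.38% ± 0.476 in testicular and 7.57% ± 0.403 in cauda spermatozoa (SD, n = 3 each). Of the 69 that were low in every testicular sample, 63 had every caput sample above every testicular sample, compared with 15.8% of all other low sites. Sites this close often lie on the same reads as the member. Members with such neighbours thus mostly lay beside sites of similar methylation, while 84 members had no other site of the table within 100 bp, and nothing can be said of their surroundings.

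Genes used mainly in germ cells included 3 with a member within 2 kb of a start, D1Pas1, Dazl and Tex14. These came from a list of 91 such genes, 10 of which had any site of the table in that window and 7 of which had a low testicular site. Over all annotated genes, 67 of 2667 with a low testicular site in the window had a member (2.51%). The numbers are small and the difference was not tested. D1Pas1, Ankrd36 and 1700123L14Rik of this list are also named in the study, which picked them from these samples. The member at D1Pas1 is therefore no independent evidence.

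D1Pas1 encodes a testis-specific RNA helicase of the DEAD-box family. Its 3 members lay 146 to 166 bp from the transcript start, outside the gene, between positions 186967250 and 186967270 of chromosome 1. All 3 testicular samples were at 0% over the 3 sites, which had 15 to 23 reads each there. The caput means of the 3 sites were 89.9%, 48.7% and 71.1%, and the corpus means were 20.7%, 56.8% and 0% in replicates 1, 2 and 3. Corpus samples thus ranged from a level within the caput range to the testicular level. Cauda replicates 1, 2 and 3 were at 0%, 0% and 4.85%. All 3 sites were called higher in corpus than in cauda, but none had groups that did not overlap, because corpus replicate 3 was at 0%. At position 186967250 corpus replicate 3 had 0 methylated reads of 14, which allows up to 21.4%, while corpus replicate 2 had 19 of 38 (Wilson 95% interval 34.8 to 65.2%). There the difference of the pooled reads was 30.9 percentage points (logistic regression, adjusted p = 7.7e-08).

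Dazl encodes an RNA-binding protein required for germ cell development. Its members at positions 50294187, 50294209 and 50294229 of chromosome 17 lay 551 to 593 bp from the start, outside the gene. Over these sites the caput samples were at 76.5%, 63.8% and 47.1%, the corpus samples at 33.8%, 25.5% and 11.7% and the cauda samples at 2.38%, 5.78% and 2.81%. All 3 sites had every corpus sample above every cauda sample. The differences were 17.6, 17.1 and 19.7 percentage points, under the size required for a call, with adjusted p of 4.6e-05, 1.9e-06 and 1.2e-08 by logistic regression. Testicular replicate 1 was at 11.1% there and the other testicular samples at 2.22% and 2.45%, so the testicular samples were not alike.

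Tex14 encodes a protein of the bridges that join developing germ cells. Its pair of members at positions 87405271 and 87405276 of chromosome 11 lay in an intron, 206 and 211 bp from the start, in a window shared with Rad51c, a gene of homologous recombination. The caput samples were at 95.5%, 48.1% and 45.6% and the corpus samples at 0%, 27.5% and 22.5%. The cauda samples were at 2.63%, 3.74% and 0%. Corpus replicate 1 had 15 reads at each site, where 0% allows up to 20%, and its overlap with cauda kept both sites out of the count of groups that did not overlap. Neither site was called, with differences of 18.2 and 20.7 percentage points.

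In all, 48 members within 2 kb of a protein coding start were assigned to 31 genes, D1Pas1, Dazl and Tex14 included and Rad51c not counted beside Tex14, and 14 of the 48 were called higher in corpus than in cauda (against 2.9% of all sites). Every corpus sample was above every cauda sample at 28 of the 48 (against 6.88% of all sites), and this held for all members at 18 of the 31 genes. Genes with at least 2 members are named here, and these, like other single genes outside the rule for named genes, were chosen after their values were seen. Besides D1Pas1, Dazl and Tex14, they were Wnt5a, BC048507, Eid2b, Pcdhb1, Prickle2, Sh2d3c, St7 and Taar4.

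Wnt5a encodes a secreted ligand of the noncanonical Wnt pathway. Its 3 members, between positions 28509333 and 28509347 of chromosome 14, lay in an intron 1271 to 1285 bp from a start and had 36 to 144 reads. Over them, the caput samples were at 86.7%, 68.9% and 51.8%, the corpus samples at 15.3%, 33.4% and 17.1% and the cauda samples at 0.362%, 2.58% and 5.48%. Corpus and cauda did not overlap at any of the 3 sites, and 1 of them was called. Prickle2, whose product acts in planar cell polarity, had a pair of members at 94.0%, 47.9% and 50% in caput and at 5.88%, 40.2% and 0% in corpus. There only corpus replicate 2 was above the cauda samples, which were at 8.75%, 0% and 0%.

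Sh2d3c encodes an adaptor of tyrosine kinase signalling. Its members were at 36.8%, 47.2% and 32.1% in corpus and at 2.50%, 2.78% and 0% in cauda, and both were called. Eid2b, which encodes an inhibitor of differentiation, was at 52.2%, 55.2% and 48.7% in caput and at 58.6%, 21.3% and 58.2% in corpus over its 3 members. At Eid2b caput replicate 1 did not stand apart, and corpus replicates 1 and 3 were as high as caput. Its cauda samples were at 13.4%, 0.980% and 16.5%, and all 3 members were called, though at 1 of them corpus and cauda overlapped.

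St7 had a pair of members within 285 bp of a start, at 22.5%, 33.4% and 32.9% in corpus and at 3.68%, 4.84% and 6.70% in cauda, and 1 was called. BC048507 had 3 members at 46.7%, 17.4% and 10.0% in corpus, above the cauda samples at 0%, 4.29% and 1.57%, and none was called. The corpus samples of St7 lay close together and those of BC048507 were spread. Taar4, a trace amine receptor of the olfactory system, had a pair of members at 100%, 100% and 82.4% in caput. They stood at 58.9%, 39.8% and 14.5% in corpus and at 12.8%, 19.4% and 2.50% in cauda, so that the segments overlapped. Pcdhb1, a protocadherin gene on chromosome 18, had 3 members at 84.6%, 53.4% and 71.8% in caput and at 0%, 34.4% and 16.0% in corpus. Corpus replicate 1 was below its cauda samples (8.78%, 3.74% and 3.82%), and none was called.

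Another 20 genes had a single member in this window. At 13 of them every corpus sample was above every cauda sample (against 6.88% of all sites). Called were 4 (Asph, Bcl11b, Ephb3 and Pgm5), against 2.9% of all sites. The groups overlapped at the other 7, which were Dok5, Fnta, Gm10718, Nolc1, Rbm19, Slc35f4 and Znhit3. Bcl11b, a transcription factor of T cells and neurons, was at 0% in all testicular samples, at 100%, 45.8% and 42.5% in caput and at 57.9%, 22.2% and 25.5% in corpus. Its cauda samples were at 2.44%, 0% and 3.33%, and it was called. Ephb3, an ephrin receptor, was also called, with corpus at 18.8%, 26.3% and 35.6% and cauda at 1.45%, 0% and 2.82%. Irx1, a homeobox gene, was at 85.7%, 66.7% and 72.7% in caput, 14.3%, 7.69% and 30.8% in corpus and 0% in every cauda sample. It was not called, although corpus and cauda did not overlap. At Nolc1 the corpus samples were at 0%, 10.2% and 0% and the cauda samples at 0%, 14.3% and 0%, and at Slc35f4 corpus was at 12.5%, 30% and 17% beside cauda at 29.4%, 27.3% and 12.8%.

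Tet1 encodes an enzyme that oxidises methylated cytosine. Its member in an intron, position 62885366 of chromosome 10 and 1958 bp from a start, was among the most deeply read, with 125 to 227 reads in a sample. Its corpus samples were at 12.0%, 23.1% and 17.6% and its cauda samples at 0.671%, 0.714% and 2.05%. The Wilson 95% intervals of the corpus samples began at 7.54%, 17.3% and 11.9%, and the highest cauda bound was 5.87%, so the segments were separated beyond counting error. Its caput samples were at 80.8%, 43.6% and 40%.

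The locus with the most members was in a coding exon of Cald1, which encodes caldesmon, a protein that binds actin. Its 6 CpGs lay between positions 34755722 and 34755748 of chromosome 6. The caput samples were alike here at 76.5%, 74.2% and 88.5%, with caput replicate 3 the highest. The corpus samples were at 0%, 10.3% and 19.3% and the cauda samples at 0%, 0.758% and 0.575%, so most of the caput level was already gone in corpus. None of the 6 sites was called or had groups that did not overlap.

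F2r, which encodes a thrombin receptor, had the opposite course. Its 4 members lay in a coding exon between positions 95604138 and 95604165 of chromosome 13, with 17 to 68 reads. The caput samples were at 84.7%, 46.2% and 79.8% and the corpus samples at 88.8%, 42.1% and 47.1%. Corpus replicate 3 thus lay within the caput range, replicate 1 above it and replicate 2 below it. The cauda samples were at 5.48%, 8.37% and 0%. All 4 sites were called, and none of them overlapped between corpus and cauda. At position 95604138 the difference of the pooled reads was 53.3 percentage points (logistic regression, adjusted p = 4.6e-19).

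An intron of Adamts20, which encodes a secreted metalloprotease, kept the highest lowest corpus sample of all members. At position 94430266 of chromosome 15, the corpus samples were at 85.7%, 56.3% and 54.3% (14, 32 and 35 reads), beside caput samples at 75.5%, 52.0% and 50%. Its cauda samples were at 8.11%, 0% and 7.14%, and the site was called with a difference of 54.1 percentage points. Corpus and caput overlapped at this site, while cauda was low. Its neighbour at 94430274 had corpus samples at 80.0%, 59.4% and 54.3%. The third member of this locus, at 94430284, was low in corpus replicate 3, and its values are given with the sequences below. Over the 3 members the corpus samples were at 81.9%, 53.1% and 37.1%. All 3 were called, and at 2 of them corpus and cauda did not overlap.

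In an exon of Hhipl2, a gene related to the hedgehog-interacting protein, 4 members at positions 183423454 to 183423475 of chromosome 1 differed strongly between corpus samples. The caput samples were at 88.7%, 65.3% and 48.2% and the corpus samples at 0%, 49.0% and 15.4%. Corpus replicate 1 had 13 to 15 reads at these sites. The cauda samples were at 11.2%, 7.55% and 3.14%, within the range of the corpus samples, and none of the 4 sites was called.

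A pair of loci at transcripts without a named product behaved alike. Gm4761, on chromosome 6, had 3 members in an exon at 27.0%, 59.8% and 30.1% in corpus and at 8.09%, 16.8% and 9.25% in cauda, all called and without overlap. AC131065.1, on chromosome 18, had 5 members within 2 kb of a start at 12.1%, 46.5% and 45.9% in corpus and at 3.81%, 6.03% and 0% in cauda. All 5 were called, and 4 had groups that did not overlap.

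Between genes, 2 loci with 3 members each went separate ways. The locus 22344 bp from the start of Grb14, an adaptor of the insulin receptor, was at 90.5%, 42.4% and 72.8% in caput and at 26.4%, 48.8% and 31.0% in corpus. Its cauda samples were at 5.40%, 5.79% and 3.75%, and all 3 members were called without overlap. The locus 29668 bp from the start of Kcng1, a potassium channel subunit, was at 91.7%, 50.7% and 69.7% in caput but at 0%, 7.63% and 0% in corpus. Its cauda samples were at 0%, 4.07% and 0.758%, so corpus and cauda overlapped and none was called.

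The Kcng1 sites were among the 6 members with the lowest values in corpus. Next to them stood a member 202154 bp from the start of Ndufs4, at 100%, 73.9% and 66.7% in caput and at 0%, 5.26% and 0% in corpus. Others were a member near Cit, also with a highest corpus sample of 5.26%, and a member in an intron of AC151478.2, with a highest corpus sample of 8.33%. At these sites the level in every corpus sample lay within or near the testicular range, with 11 to 40 reads behind a corpus value.

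A single member was above 20% in all 3 cauda samples. It lay at position 78167736 of chromosome 12 in a soft-masked repeat, 26506 bp from the start of Gm6657. Its cauda samples were at 52.9%, 25% and 66.7% (17, 24 and 12 reads) and its corpus samples at 100%, 50% and 93.8%, beside 90.5%, 98.5% and 91.4% in caput. The Wilson 95% interval was 12.0 to 44.9% in cauda replicate 2 and 4.01 to 39.9% in testicular replicate 2, the highest testicular sample, so these 2 were not told apart at this depth. It was also the only member whose CpG is part of CCGG, the sequence cut by MspI, the usual enzyme of RRBS. Such sites were rare throughout, at 0.382% of the members, 0.460% of the other low sites and 0.244% of all autosomal sites. The part of this position in its values was not tested.

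The members with the next highest lowest cauda samples had testicular means above the 5.96% of the whole set. They were those at Serf2, Nap1l1, Kitl, Mmp1b and Gm29264. This did not hold for every member with a raised cauda sample. A member in an intron of 9130024F11Rik was at 26.1%, 9.09% and 0% in cauda and at 0% in every testicular sample. At Serf2, 1520 bp from a start, cauda samples were at 29.0%, 26.6% and 17.4% and testicular samples at 15%, 18.2% and 20%. A member near Nap1l1 was at 27.8%, 18.6% and 20.4% in cauda and at 14.3%, 16.7% and 12.3% in testicular spermatozoa, with every cauda sample higher. Across all members, the Pearson correlation between the testicular and cauda means was 0.492 (n = 262), a description over sites that share libraries. Near Kitl, the ligand of the Kit receptor, the cauda samples were at 19%, 25% and 15.9%, and corpus replicate 1, with 10 reads, was at 0%. The member near Mmp1b stood at 14.8%, 33.8% and 25% in cauda and the member at Gm29264 at 18%, 17.1% and 18.8%.

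A member near Zfp184, a zinc finger gene, was among the 6 with the highest lowest corpus sample. It was at 64.3%, 53.8% and 41.4% in corpus and at 0%, 6.25% and 9.52% in cauda, and it was called with a difference of 45.6 percentage points. Only 8 members were at least 40% in all 3 corpus samples. The remaining members of this kind were those at F2r, those at positions 94430266 and 94430274 in Adamts20, and the member at position 78167736 of chromosome 12.

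None of the lists of somatic genes had a member within 2 kb of a start, but few of their genes had a low testicular site there. Over all annotated genes with such a site, only 2.51% had a member, so these lists are too small to be read either way. Of 42 genes of the epididymal epithelium, 40 were in the annotation, 3 had a site of the table in that window and 2 had a low testicular site. Of 24 leukocyte genes, 3 had a site and 2 a low one. Of 25 genes of the cytoskeleton and muscle, 9 had a site and 5 a low one, and the Cald1 members lay 7112 bp or more from a start. Of 14 genes named in the study, which were picked from these samples and are no independent evidence, 3 had a site in the window, 1 had a low one and only D1Pas1 had a member there. Cald1 and Ccbe1 are also on that list, with 6 members and 1 member outside the window.

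The labelled cell type was checked at imprinted genes, where spermatozoa carry the marks of the father. The single site of the table at H19, methylated on the paternal copy, was between 87.1% and 98.9% in all 12 samples, with caput replicate 1 the lowest. At Mcts2, unmethylated on the paternal copy, the 3 sites had a mean of 68.2%, 22.6% and 16.9% in caput replicates 1, 2 and 3. They were at 0%, 1.71% and 5.61% in testicular, 0%, 9.20% and 0% in corpus and 0%, 0% and 4% in cauda spermatozoa. At Zrsr1, of the same kind, the 4 sites were at 26.8%, 0% and 11.4% in caput, 0%, 0% and 8.99% in testicular, 0%, 7.91% and 16.9% in corpus and 0%, 0% and 3.41% in cauda spermatozoa. None of these sites was a member, and caput replicate 1 was the highest sample at both genes. The other 15 genes on this list of 18 had 0 sites in the table. Whether cells other than spermatozoa had a part in the caput levels of the members was not tested.

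The sequences of 8 loci show how close together the members sit and what surrounds them. They are printed from GRCm38 on the plus strand, 5′ to 3′, with the CG of each member in capitals. Cald1 and F2r (both coding exons) are given for the largest locus and for a locus whose corpus and caput values overlapped. D1Pas1 (upstream of its start) is given for the gene of the germline list whose members were called.
Cald1 exon, chr6:34755697-34755774: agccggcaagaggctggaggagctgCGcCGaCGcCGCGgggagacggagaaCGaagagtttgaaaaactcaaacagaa
F2r exon, chr13:95604113-95604191: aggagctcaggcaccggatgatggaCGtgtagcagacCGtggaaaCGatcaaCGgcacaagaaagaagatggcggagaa
D1Pas1 upstream, chr1:186967225-186967296: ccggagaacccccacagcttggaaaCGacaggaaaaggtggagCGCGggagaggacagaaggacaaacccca

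The introns of Wnt5a and Adamts20 and the intergenic loci nearest to Grb14, Kcng1 and Gm6657 are given for their different courses in corpus and cauda. In the Cald1 window 6 of 8 CpGs were members, in that of F2r 4 of 6, in that of Wnt5a 3 of 6 and in that of Kcng1 3 of 4. The Adamts20 window also holds the member at position 94430284, which was at 80.0%, 43.8% and 2.86% in corpus.
Wnt5a intron, chr14:28509307-28509372: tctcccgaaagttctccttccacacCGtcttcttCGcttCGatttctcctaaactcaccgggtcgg
Adamts20 intron, chr15:94430241-94430310: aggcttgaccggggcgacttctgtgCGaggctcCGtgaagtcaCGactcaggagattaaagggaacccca
Grb14 intergenic, chr2:64892634-64892701: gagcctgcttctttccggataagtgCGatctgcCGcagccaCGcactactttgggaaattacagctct
Kcng1 intergenic, chr2:168311379-168311445: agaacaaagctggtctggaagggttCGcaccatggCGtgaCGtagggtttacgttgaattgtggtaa
Gm6657 intergenic, chr12:78167710-78167761: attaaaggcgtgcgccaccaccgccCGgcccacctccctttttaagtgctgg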

How the data were processed

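Per the labels, spermatozoa of 4 origins were profiled by RRBS in 12 samples. The authors trimmed the reads with Trim Galore (version 0.4.1), aligned them to GRCm38 with Bismark (version 0.16.1) and deposited counts of all, methylated and unmethylated reads per CpG site and sample, without normalization. Their lists of differential sites and regions, which hold differences, p-values and q-values, were not used. Percent was computed as methylated over all reads. The members and gene lists were chosen with earlier results of these data known.

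Genes came from GENCODE M21, and each site was assigned to a protein coding gene with a start within 2 kb, else to the gene around it, else to the nearest protein coding gene. Named loci were the 10 with the most CpGs (ties by the higher caput mean), the 6 members with the highest lowest corpus sample, the 6 with the highest lowest cauda sample, the 6 with the lowest highest corpus sample, members within 2 kb of the start of a listed gene (germline, epididymal epithelium, leukocyte, cytoskeleton and muscle, named in the study) and the 3 sites nearest to each side of a limit, with all members tied at it.

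Reads of corpus and cauda were compared site by site in a logistic model (likelihood-ratio test, no overdispersion term). The tests were first run on simulated reads with 200 changes of 50 percentage points. The logistic model recovered 198 of them, limma 98 (pseudo-percent 1) and 101 (pseudo-percent 5) and the overdispersion term 0, with 0 false calls each. The simulated replicates differed by counting error only, so these runs could not show how the logistic model behaves when replicates differ more. Alternatives were limma, an overdispersion term, a replicate block, other limits and depths, and leaving out replicates. The labels number the samples without naming their mice, and the study describes pools and separate experiments, so p-values concern these samples only. Python 3.11.15 (numpy 2.4.6, pandas 2.3.3, scipy 1.17.1, pysam 0.24.0) and R 4.3.3 with limma 3.58.1 were used.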

Additional observations from a re-analysis of the deposited data

How the results depend on the processing

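Of 105 alternative values, 69 stayed within the spread between replicates or within 1.5 times the count, 36 moved further and 0 reversed. With limits of 10% and 50% there were 37 members, of which 15 were called higher in corpus than in cauda, 17 had every corpus sample above every cauda sample, 26 had every cauda sample at most 10% and 17 had every corpus sample above 10%. With limits of 25% and 35% there were 439 members, and the first 3 of these counts were 144, 210 and 386, the last at a limit of 25%. With at least 20 reads in every sample, 88 members remained under the rule, with 27, 65, 79 and 33 (limit 20%), and 134 sites of the table were called higher and 35 lower in corpus. Groups thus did not overlap at 65 of 88 members, against 123 of 262 in the main set. Shares over all sites at this depth are not given, so these counts are a description only. The cause of these changes was not tested, beyond the number of sites entering.

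With limma, 0 members were called, and over all sites 3 were higher and 1 lower at a pseudo-percent of 1, and 1 higher and 0 lower at 5. The overdispersion term gave 0, 0 and 0. A difference above 40 percentage points left 14 members, 50 higher and 19 lower sites. An adjusted p under 0.001 and autosomes only moved no count by more than 1.5 times.

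Leaving out each corpus or cauda replicate in turn gave a mean difference of 18.2 to 22.0 percentage points, 63 to 111 called members, 369 to 533 higher and 156 to 328 lower sites (328 without corpus replicate 2), 129 to 184 members without overlap, 224 to 238 members at most 20% in every cauda sample and 70 to 116 members above 20% in every corpus sample (116 without corpus replicate 1, 108 without corpus replicate 3). Over all sites, groups did not overlap, with corpus higher, at 6.88% with every sample. The share was 11.9% without corpus replicate 1 and 9.51% without corpus replicate 2, and it is not given for the other runs. Choosing members by caput replicates 2 and 3 and leaving out corpus replicate 1, chosen after seeing the data, gave 187 members without overlap and 118 above 20% in every corpus sample, of 269.

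The same-numbered corpus and cauda samples deviated together with correlations of 0.0598, 0.0252 and 0.0471 across sites, so the numbers were not taken as pairing, although each corpus sample correlated best with its own number. With the replicate block, 91 members, 405 higher and 178 lower sites were called, and limma with the block, chosen after seeing the data, called 0, 0 and 0. Corpus replicate 1, with a median of 20 reads at a member, limits its single-site values.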
